A study of Homo sapiens with 8 samples.

Results

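The clustered histone genes are the genes of the 4 human histone clusters, whose symbols in the deposited table begin with HIST1H, HIST2H, HIST3H or HIST4H. They were chosen by symbol alone, and where a symbol had several gene models the one with the highest mean expression rank was used. This gave 66 genes, from 69 of the 25918 gene models in the table. By type they comprise 6 linker histone H1 genes, 15 H2A, 18 H2B, 13 H3 and 14 H4 genes. The HIST1 cluster on chromosome 6 holds 54 of them, chromosome 1 holds 8 HIST2 and 3 HIST3 genes, and chromosome 12 holds HIST4H4.

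The data come from m6A-seq, in which fragments of mRNA that carry N6-methyladenosine (m6A) are enriched with an antibody and sequenced beside an input library. All cultures are labelled HepG2, a hepatocarcinoma cell line. They were exposed to UV light at 0.04 J per square centimetre, to heat shock at 43 degrees for 30 min, to hepatocyte growth factor (HGF/SF) at 10 ng/ml overnight, or to interferon gamma (IFNg) at 200 ng/ml overnight. A recovery of 4 h is recorded after UV, and its wording may also cover heat shock. All cultures were grown in the same serum-containing medium, and their RNA was polyA-selected before it was fragmented. Each treatment has 1 IP and 1 input library, and no untreated culture was analysed here, so differences have no replicate check.

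The deposited table holds expression as a rank among all gene models of a treatment, printed here as a percentile from 0 to 100. The table does not say whether the rank rests on the IP library, the input library or both. A rank holds no amount, so no fold change can be given, and fewer cells that express a gene cannot be told apart from less RNA per cell. The lowest ranks are ties, which form a floor at percentile 45.5 under UV, 32.7 under heat shock, 20.4 under HGF and 18.4 under IFNg. Coordinates follow the deposited table with 1-based starts, and the sources used here name no genome build for them.

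The label was checked against markers of liver cells. Of 15 hepatocyte markers, 13 were at the floor under UV, 1 reached percentile 60 in any treatment and 0 had an m6A peak. ALB, which encodes albumin, was at percentile 45.5 under UV (the floor), 57.6 under heat shock, 24.9 under HGF and 22.3 under IFNg. APOA2 and FGB were at the floor in all 4 treatments, and TTR, the highest marker, stood at 76.1, 71.5, 43.0 and 42.0 in the same order of treatments. KRT7, a keratin of bile duct epithelium, stood at 99.8 under UV, 99.7 under heat shock, 99.2 under HGF and 99.7 under IFNg. The other cholangiocyte markers lay lower: KRT19 at 58.8 to 79.2, SOX9 at 43.7 to 61.0, and CFTR at the floor apart from IFNg, at 22.3. LUM, the highest fibroblast marker, lay at 81.1 to 95.5, and COL1A2 did not reach percentile 60. Of markers of other cell types, 3 of 4 cholangiocyte, 5 of 6 fibroblast, 1 of 5 blood cell and 0 of 4 endothelial genes passed percentile 60. The markers that define hepatocytes were thus below percentile 60 in all treatments apart from TTR, and the cultures are called by their label below. What this means for the ranks below was not tested.

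Histones are the proteins around which DNA is wound. A pair of H3-H4 dimers and a pair of H2A-H2B dimers form the core of a nucleosome, and H1 binds the DNA that links nucleosomes. Most clustered genes are transcribed mainly during S phase, when new DNA must be packaged, and their mRNAs normally end in a conserved stem-loop rather than a poly(A) tail. The stem-loop is bound by SLBP, and the U7 snRNP directs cleavage of the mRNA behind it. Some clustered genes also give polyadenylated mRNA, and polyA selection favours that form. What this selection did to the ranks was not tested.

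The stem-loop was searched for in GENCODE 29 transcripts of the members as 16 bases with a paired stem of 6 that begins GG and a loop of 4 that begins TT. Of 31 members with a transcript that runs 50 nt or more beyond its coding sequence, 25 had it. In all 26 members had it behind the coding sequence, 26 to 71 nt after its last base. By contrast, 0.261% of 83129 coding transcripts of any gene held such a stretch anywhere. The members shared 4 versions of it, and 1 of each is shown in capitals, with 5 flanking bases on either side. They are shown because the mRNA form that ends there lacks a poly(A) tail. A transcript can run on past the stem-loop, which in HIST2H2BE begins at nt 450 of 2194, so its presence does not tell the forms apart.
HIST2H2BE (chromosome 1): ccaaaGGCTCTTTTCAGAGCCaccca
HIST1H2BC (chromosome 6): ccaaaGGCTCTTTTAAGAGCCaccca
HIST1H4E (chromosome 6): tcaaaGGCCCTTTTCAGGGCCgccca
HIST1H4I (chromosome 6): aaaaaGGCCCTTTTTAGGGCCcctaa
The version in HIST2H2BE was found in 14 members, that in HIST1H2BC in 5, that in HIST1H4E in 5 and that in HIST1H4I in 2. Members with it lay both high and low: 21 of the 26 reached percentile 60 in some treatment and 5 did not.

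Most clustered histone genes ranked near the top of the transcriptome. Of 66 genes, 52 reached percentile 60 in at least 1 treatment (the filter), 41 had a mean percentile over the 4 treatments of 90 or more, and 9 had a mean of 99 or more. The median percentile of the 66 genes was 89.4 under UV, 91.9 under heat shock, 96.1 under HGF and 98.0 under IFNg. The number at percentile 90 or more was 33 under UV, 37 under heat shock, 42 under HGF and 48 under IFNg, which is 50%, 56.1%, 63.6% and 72.7% of them, where 10.0% of all models lie by construction. Another 14 genes did not pass the filter, and 6 of these were at the floor in all 4 treatments. The members below the filter are part of every count over 66.

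**Figure D1:**
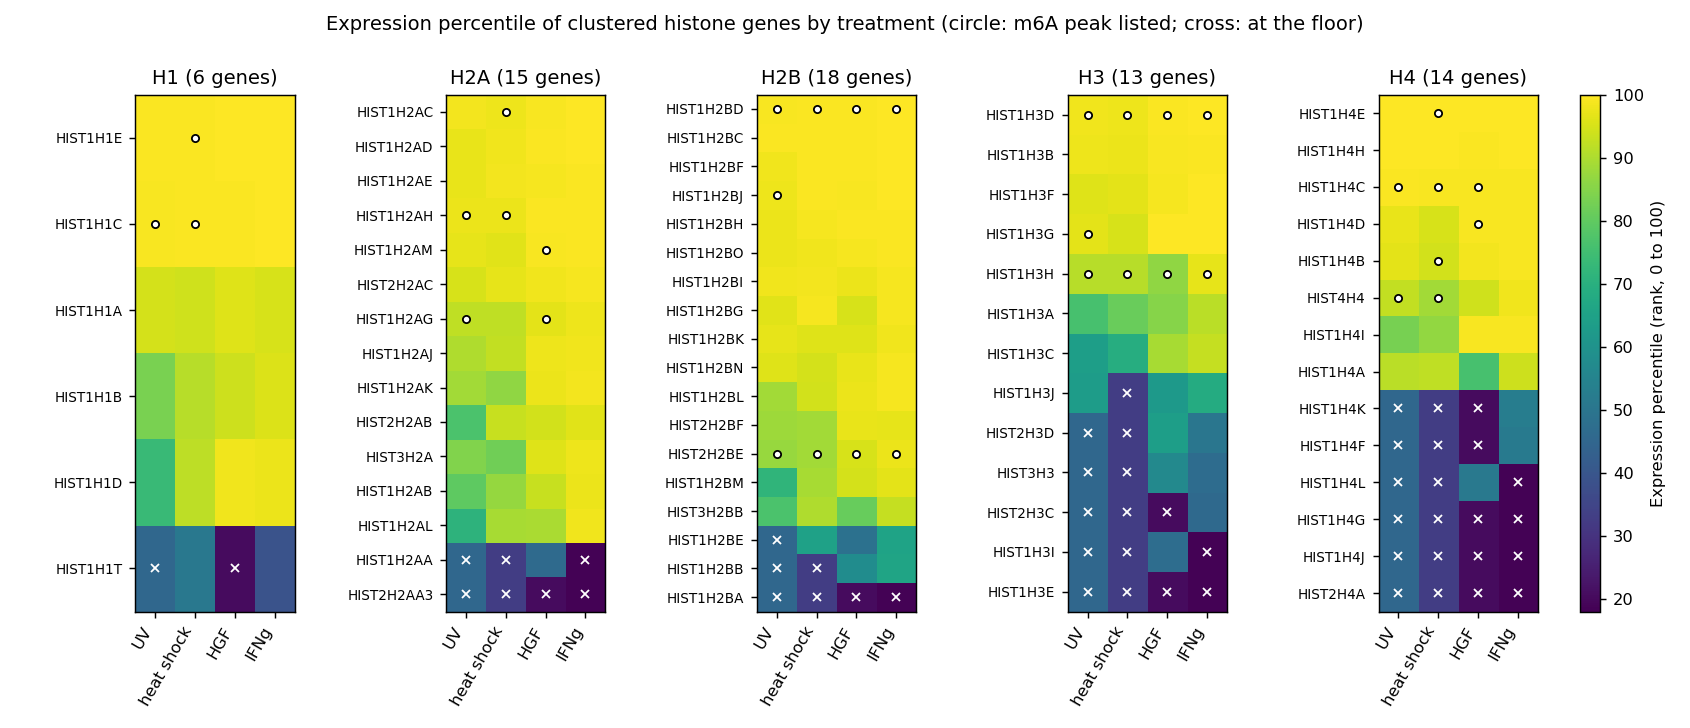
Expression percentile of each of the 66 clustered histone genes (rows, ordered by mean percentile within a histone type) under each treatment (columns), as colour. White crosses mark values at the floor and circles mark a listed m6A peak; 41 rows have a mean of 90 or more, and 6 rows are at the floor in all 4.

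The linker histone genes ranged from the top of the table to the floor. HIST1H1E, which encodes H1.4, stood at percentile 99.4 under UV, 99.5 under heat shock, 99.8 under HGF and 99.9 under IFNg. HIST1H1C, which encodes H1.2, stood at 99.2, 99.5, 99.5 and 99.8 in that order. HIST1H1A had values between 94.1 and 96.1, while HIST1H1B had 83.7 under UV and 91.1 to 95.8 under the other treatments. HIST1H1D, which encodes H1.3, was at 73.5 under UV, 91.7 under heat shock, 98.2 under HGF and 97.7 under IFNg. The UV value of HIST1H1D lay apart from its other values, which was the largest such gap among the H1 genes past the filter. HIST1H1T, the testis-specific linker histone, was at the floor under UV and HGF and reached 50.9 under heat shock and 39.1 under IFNg.

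H2A and H2B had the most members at the top. Of 15 H2A genes, 11 had a mean of 90 or more, led by HIST1H2AC (98.6 under UV, 97.9 under heat shock, 99.3 under HGF, 99.7 under IFNg). The lowest H2A gene was HIST2H2AA3, at the floor in all 4 treatments, and HIST1H2AA left the floor under HGF alone, at 46.4. Of 18 H2B genes, 13 had a mean of 90 or more. HIST1H2BD led them, with 99.2 under UV, 99.7 under heat shock, 99.5 under HGF and 99.8 under IFNg, followed by HIST1H2BC with values between 99.4 and 99.7. HIST1H2BA, a testis histone, was at the floor throughout. HIST1H2BE had the floor under UV, 64.8 under heat shock, 48.7 under HGF and 65.7 under IFNg, far below most H2B genes.

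H3 and H4 genes split into a high and a low group. Of 13 H3 genes, 5 had a mean of 90 or more, and HIST1H3D led them with 98.2 under UV, 98.0 under heat shock, 99.5 under HGF and 99.7 under IFNg. The HIST1H3D model overlaps that of HIST1H2AD on the same strand, so its rank may hold reads of that gene, which was not tested. HIST1H3E was at the floor in all 4 treatments. HIST3H3, the testis-specific H3, was at the floor under UV and heat shock and stood at 56.6 under HGF and 47.1 under IFNg. The median H3 gene lay at 63.9 under UV, 69.1 under heat shock, 85.2 under HGF and 91.5 under IFNg, the lowest median of the 5 types under UV, heat shock and IFNg. Of 14 H4 genes, 7 had a mean of 90 or more and 3 were at the floor in all 4 treatments (HIST1H4G, HIST1H4J and HIST2H4A). HIST1H4E was the highest of all 66 genes, at 99.9 under UV, 99.9 under heat shock, 99.8 under HGF and 99.9 under IFNg. HIST1H4H stood between 99.4 and 99.8 and HIST1H4C between 99.1 and 99.6.

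By cluster, mean percentiles of 90 or more were found for 35 of 54 HIST1 genes, 4 of 8 HIST2 genes and 1 of 3 HIST3 genes, and HIST4H4 had a mean of 93.4. Neighbouring members whose deposited models lie head to head, with starts less than 1000 nt apart, formed 11 pairs. Of these, 10 join an H2A with an H2B gene. Not counted were HIST1H2BK with HIST1H2AH and HIST1H3D with HIST1H2BF, which lie as close but have another member's model beginning between them. The RefSeq promoter windows of the pair HIST1H2BL and HIST1H3H lie over 1000 nt apart (chr6:27807880-27808179 and chr6:27809801-27810100). Both genes passed the filter in 10 pairs and neither did in the pair of HIST1H2AA and HIST1H2BA. Among the 10 pairs the median gap in mean percentile was 3.68 points, and it was under 5 points in 8 of them. HIST1H2AM and HIST1H2BO, whose starts are 239 nt apart, had means of 98.1 and 98.5. The widest gap was that of HIST1H2AJ and HIST1H2BM, with means of 94.7 and 88.1.

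Several members are near-identical copies, so their reads could have been split or dropped by the authors' counting. The median member shared 8.25% of its 30-base stretches with a transcript of another gene symbol, which may be one annotated over the same place. HIST2H2AA3, HIST2H3C and HIST2H4A each had 2 models at identical values and shared 100% of their stretches. HIST1H4K and HIST1H3D also shared 100%, and HIST1H2AD shared 98.1%. Their ranks are uncertain for that reason. Of these 6 genes, HIST1H3D and HIST1H2AD passed the filter. The span of the HIST1H3D model (chr6:26304991-26307443) also takes in most of HIST1H2AD (chr6:26306991-26307450), on the same strand, so a read there could count for both. For HIST1H3D and HIST1H2AD, shared stretches thus need not mean a copy elsewhere, which was not tested.

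The 4 treatments ranked the histone genes in an uneven order. IFNg gave the highest percentile in 46 of the 52 members past the filter (88.5%), against 25.5% of all models past the filter. Heat shock gave the highest in 0 of 52, which allows a share of up to 5.77%, against 33.2% of all models, and IFNg gave the lowest in 0 of 52, against 32.9%. UV gave the lowest in 27 members (51.9%), against 16.5% of all models. IFNg lay above both UV and heat shock in 51 of 52 members (98.1%), against 39.7% of all models past the filter and 60% of 4475 other models within the members' interquartile range of GC content. By type, IFNg was highest in 13 of 13 H2A genes past the filter, 16 of 17 H2B, 7 of 9 H3, 7 of 8 H4 and 3 of 5 H1 genes. The exceptions were HIST1H4C, highest under UV, and 5 genes highest under HGF: HIST1H1A, HIST1H1D, HIST2H2BF, HIST1H3G and HIST2H3D.

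The gaps behind this order were small for most members. Against the median of the other 3 treatments, the median member past the filter differed by -2.08 points under UV, -1.61 under heat shock, 1.21 under HGF and 2.80 under IFNg. Over all models past the filter the same medians were 0.24, 0.45, -0.24 and -0.18 points. Among the 41 members with a mean of 90 or more, IFNg was highest in 36 (87.8%), against 22.4% of 2165 other models at that level.

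**Figure D2:**
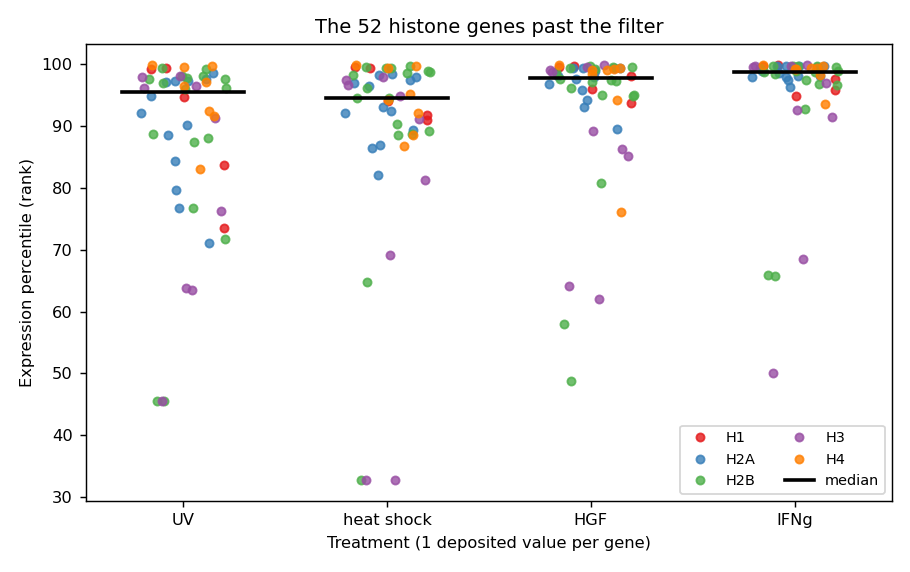
Expression percentile (y axis) of the 52 clustered histone genes past the filter under each treatment (x axis), 1 point per gene coloured by histone type, with the median as a black bar. The medians are 95.5 under UV and 94.5 under heat shock, against 97.8 under HGF and 98.8 under IFNg, where the points lie closer to 100.

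The order goes with base composition across the whole table, so the members were also set beside models of like GC content. The difference of the mean of UV and heat shock from the mean of HGF and IFNg had a median of -2.71 points over the members and 0.72 over all models past the filter. Other models within the members' interquartile range of GC content (47.5% to 60.6%) had a median of -3.17 points, and IFNg was highest in 37.1% of them. With the members' GC taken from the GENCODE transcript nearest in length to the model, 42 members lay above 48.2% GC. That is the median of other models past the filter, whose GC came from the longest transcript of the symbol. The measures can differ: HIST1H2BN had 39.5% by the longest and 58.8% by the nearest transcript. Above 48.2% IFNg was highest in 38 of the 42 members, against 43.0% of other models. Below it IFNg was highest in 8 of 10 members, against 7.97% of other models. Among these 10, HIST1H2AC, HIST1H2BF, HIST1H2BH, HIST1H3G, HIST1H4E and HIST1H4I had a nearest transcript far longer than the model. In HIST1H2BH it was 2060 nt, against a span of 425 nt, so the GC content of those models is uncertain. When the median of the models in the same of 40 GC bins was subtracted, IFNg was highest in 16 of 52 members (30.8%), against 22.6% of models, and the median difference turned to 0.70 points. When that subtraction used only models with a mean of 90 or more, IFNg was highest in 21 of 41 members (51.2%), against 28.9%, and the median difference was -1.45 points, against -0.03. The part of GC content in the order was not tested beyond these values.

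**Figure D3:**
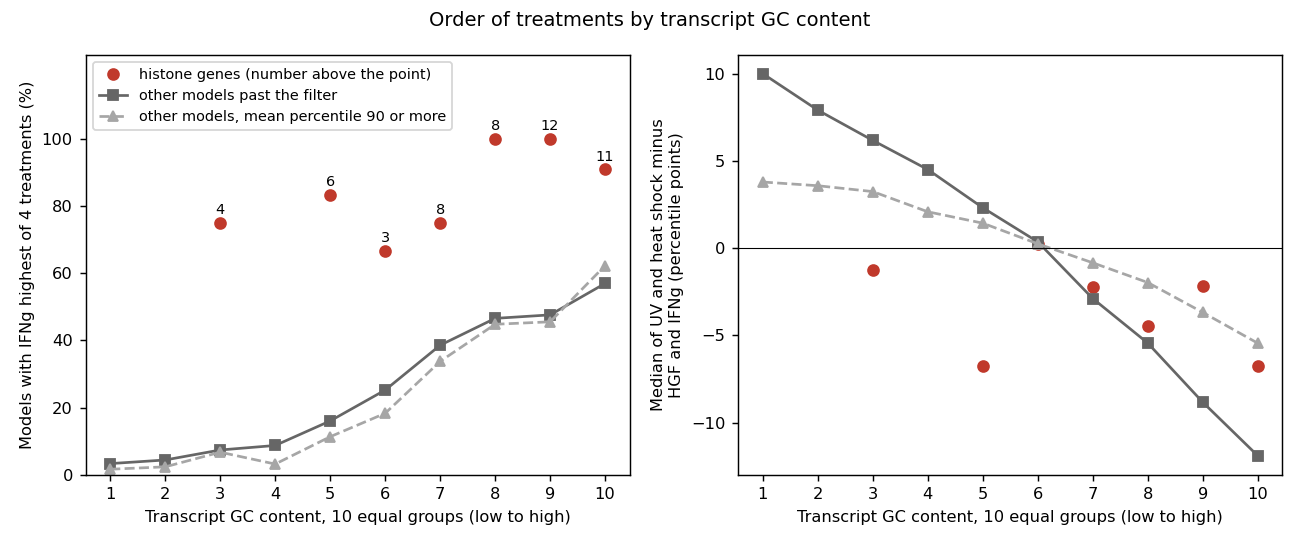
Left, share of models with IFNg as the highest of the 4 treatments (y axis, %) in 10 equal groups of transcript GC content (x axis, low to high), for histone genes past the filter (red, number of genes above each point), other models past the filter (dark grey) and other models whose mean percentile is at least 90 (light grey). Right, the median of the UV and heat shock mean less the HGF and IFNg mean, in percentile points, for the same sets; the grey lines slope down with GC content, and the red points lie above both grey lines in the left panel wherever there is a member. GC content is that of the transcript nearest in length to the model for histone genes and of the longest transcript for other models.

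Few members moved by 10 points or more in a single treatment. UV lay 10 points or more below all 3 other treatments in 4 of 52 members (7.69%), where 2.17% of all 12624 models past the filter did, and above them in 0, where 1.93% did. Heat shock lay below in 1 member (background 3.98%) and above in 0 (2.87%). HGF lay above in 1 (1.57%) and below in 1 (1.39%). IFNg lay above in 0 (3.39%) and below in 0 (3.02%). The 4 genes low under UV were HIST1H1D, HIST1H2AL, HIST1H2BM and HIST2H2AB.

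The gap between UV and the other treatments is the rule by which these 4 genes were called. With the medians of the 40 GC bins subtracted, 2 members were called lower under UV (3.85%, against 1.70% of models). HIST1H2AL was at 71.1 under UV, 89.4 under heat shock, 89.5 under HGF and 98.1 under IFNg. HIST1H2BM was at 71.7 under UV, 89.2 under heat shock, 94.9 under HGF and 96.6 under IFNg. HIST2H2AB was at 76.8 under UV, 93.0 under heat shock, 94.3 under HGF and 96.4 under IFNg. All 3 encode core histones of the H2A-H2B dimer. The gene low under heat shock was HIST1H3J (63.5 under UV, the floor under heat shock, 62.0 under HGF and 68.4 under IFNg). HIST2H3D, high under HGF at 64.1, was at the floor under UV and heat shock and at 50.1 under IFNg, and it passed the filter through HGF alone, so it had to differ. HIST1H4A was low under HGF, at 76.1, against 91.6 under UV, 92.0 under heat shock and 93.6 under IFNg.

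Between the pairs of treatments, 11 of 52 members (21.2%) were lower by 10 points or more under UV and heat shock without overlap, where 16.2% of all models were, and 0 were higher, where 14.6% were. The share of lower calls was thus near that of the table as a whole. With the GC correction over all models, 9 members were called higher (17.3%, against 7.56% of models) and 6 lower (11.5%, against 6.22%), so the calls then ran in both directions. HIST1H3C had the widest gap, with 63.9 under UV and 69.1 under heat shock, against 89.2 under HGF and 92.6 under IFNg. HIST1H4I had 83.0 and 86.8 under UV and heat shock, against 99.1 and 99.3 under HGF and IFNg. HIST3H2A had 84.4 and 82.1 under UV and heat shock, against 95.8 and 97.9. HIST1H2AB had 79.7 and 86.9 against 93.1 and 97.5, and HIST1H2AK had 88.5 and 86.4 against 97.6 and 98.6, with UV and heat shock given first. HIST1H2BB was at the floor under UV and heat shock and stood at 57.9 under HGF and 65.9 under IFNg. It passed the filter through IFNg alone, so it had to differ and to be highest there. HIST1H1D, HIST1H2AL, HIST1H2BM, HIST2H2AB and HIST2H3D made up the rest of the 11.

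On a scale of the log2 rank counted from the top, where a gap near the top weighs more, a 2-fold change of rank separated the pairs in 33 of 52 members (63.5%), all lower under UV and heat shock, against 10.5% of models. On that scale IFNg was higher than all 3 other treatments in 15 members (28.8%), against 2.29% of models. This scale was chosen after the data had been seen.

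m6A peaks were listed in few histone genes. A peak was listed in 11 of 66 members under UV (16.7%, exact 95% interval 8.62% to 27.9%), in 12 under heat shock (18.2%, 9.76% to 29.6%), in 8 under HGF (12.1%, 5.38% to 22.5%) and in 4 under IFNg (6.06%, 1.68% to 14.8%). Over all models the shares were 27.7%, 21.8%, 21.3% and 13.7% in the same order. The number of members with a peak was lowest under IFNg, where the members ranked highest. In all, 17 members carried 39 listed peaks at 21 sites, and 24 members with a mean percentile of 90 or more carried none. HIST1H4H, HIST1H2BC and HIST1H2BF were among those without a peak.

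The shortfall was wider among highly ranked genes. At percentile 90 or more, a peak was listed in 10 of 33 members under UV (30.3%), 10 of 37 under heat shock (27.03%), 7 of 42 under HGF (16.7%) and 4 of 48 under IFNg (8.33%). Among all other models at that level the shares were 68.4%, 56.9%, 49.6% and 38.8%. The models of the members are short, with a median span on the genome of 460 nt, against 14614 nt for all models. Other coding models of 2500 nt or less at that level had a peak in 70 of 121 under UV (57.9%), 47 of 94 under heat shock (50%), 52 of 146 under HGF (35.6%) and 32 of 148 under IFNg (21.6%). The exact 95% intervals of the members reached up to 48.7%, 44.1%, 31.4% and 19.98%. These limits lay below the shares of all other models and of the short models under each treatment. They lay within the intervals of the short models, which began at 48.5%, 39.5%, 27.9% and 15.3%. The intervals take in counting error alone and treat members as independent, without replicate libraries. Reads of some members could count for several, so the limits are no test of a difference. The short models reach 2500 nt, against the members' median of 460 nt, so length was not matched. How far span set the gap in shares was not tested.

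**Figure D4:**
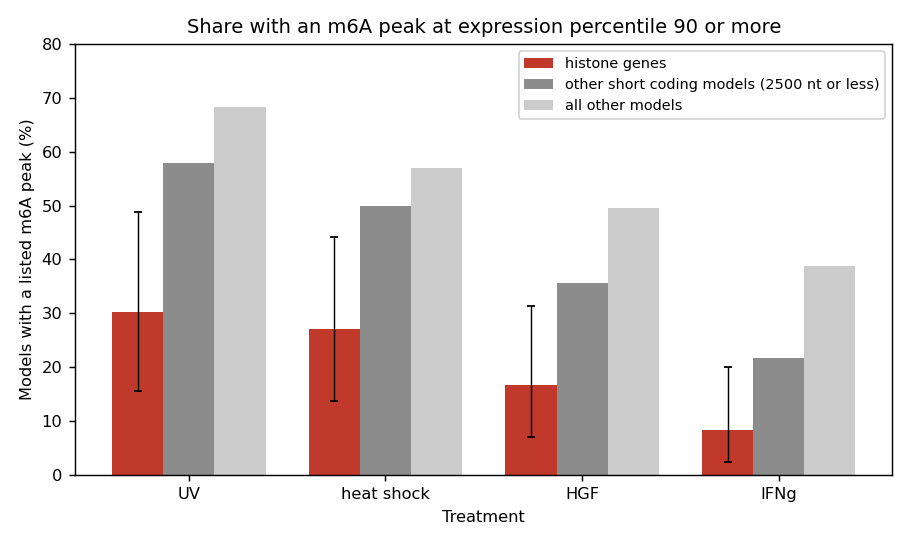
Share of models with a listed m6A peak (y axis, %) among models at percentile 90 or more under each treatment (x axis), for clustered histone genes (red, with exact 95% intervals for counting error), other coding models of 2500 nt or less (dark grey) and all other models (light grey). The red bar is the lowest of the 3 under each treatment, at 30.3% under UV and 8.33% under IFNg.

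A peak was listed in a larger share of the longer histone models. Among 6 members whose model spans 800 nt or more, 4 had a peak and 3 had one under all 4 treatments. Among 60 shorter models 13 had a peak, and 1 of them had one under all 4. The 6 longer models were those of HIST1H2BK, HIST1H3D, HIST1H3H, HIST1H2AG, HIST2H2BE and HIST2H2BF, with mean percentiles of 91.4 to 98.8, and HIST1H2BK and HIST2H2BF had no peak.

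By the deposited segment labels, the members' peaks were TxStart, AroundStop or UTR3 peaks. Of the 39 peaks, 19 were labelled TxStart (48.7%, exact 95% interval 32.4% to 65.2%), 14 AroundStop (35.9%) and 6 UTR3 (15.4%). Peaks labelled CDS or UTR5 numbered 0 of 39 each. In models this short the TxStart and AroundStop labels leave little room for a CDS label. AroundStop peaks lay at nt 295 of 546 in HIST1H2AC and at nt 235 of 357 in HIST1H4B. How far model length set these label counts, also beside those of longer models, was not tested. In other models 6.64% of peaks were labelled TxStart, and in other coding models of 2500 nt or less 10.8%, a span limit far above the members' median of 460 nt. Below a span of 800 nt, 17 of 22 member peaks were labelled TxStart and 5 AroundStop. Other coding models below that span held 12 peaks in all, of which 2 were labelled TxStart, 7 AroundStop, 2 UTR3 and 1 CDS. All TxStart peaks of members lay 65 to 120 nt from the start. TxStart peaks made up 15 of 26 member peaks under UV and heat shock (57.7%) and 4 of 13 under HGF and IFNg (30.8%). In other models they made up 9.003% under UV and heat shock and 2.85% under HGF and IFNg. Peaks of 1 gene in several treatments share a site, so the 39 peaks are not independent and the interval is too narrow. By site, 10 of 21 were labelled TxStart, 8 AroundStop and 3 UTR3. In HIST1H2BD, whose coding sequence begins at nt 25 of its GENCODE 29 transcript, the positions labelled TxStart fall within the coding sequence.

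**Figure D5:**
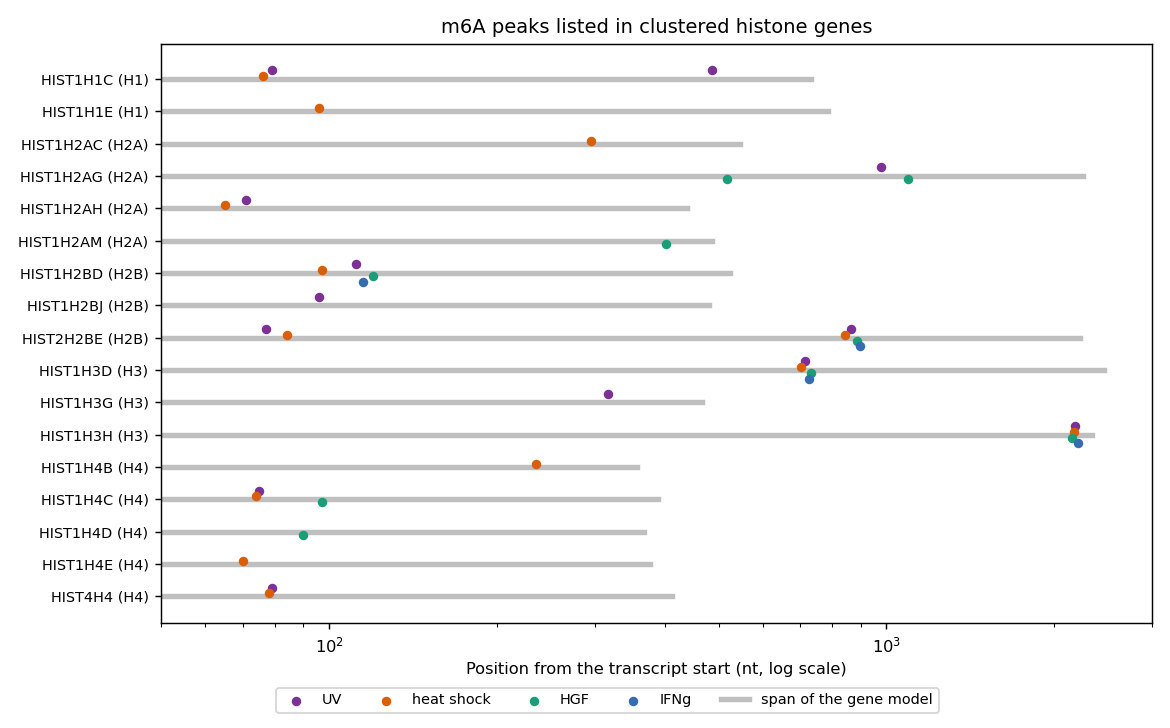
Position of each listed m6A peak (x axis, nt from the transcript start, log scale) in the 17 clustered histone genes that have one (rows), coloured by treatment, with the span of the gene model as a grey line. Most short models have their peak between 65 and 120 nt, and 4 genes have peaks from all 4 treatments within 100 nt of each other.

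Sites in 4 genes were listed under all 4 treatments. In HIST1H2BD (chr6:26266328-26266850, plus strand) the site lay 97 to 120 nt from the start and was labelled TxStart. In HIST2H2BE (chr1:148122634-148124856, minus strand) it lay at 844 to 896 nt and was labelled UTR3. In HIST1H3D (chr6:26304991-26307443, minus strand) it lay at 704 to 732 nt in exon 2, labelled AroundStop. In HIST1H3H (chr6:27883956-27886293, plus strand) it lay at 2152 to 2204 nt, labelled AroundStop. HIST1H4C had a site at 74 to 97 nt under UV, heat shock and HGF but not under IFNg, although its percentile under IFNg was 99.3. Another 4 sites were listed under UV and heat shock, all labelled TxStart, in HIST1H1C, HIST1H2AH, HIST2H2BE and HIST4H4. The remaining 12 sites were listed under a single treatment, 4 each under UV, heat shock and HGF and 0 under IFNg. Among members' sites 57.1% were listed once, against 40.3% of 17743 sites in other models.

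The members' peaks had low scores. The score is the authors' own, and the median member peak ranked at the 22.3 percentile of all peaks of its treatment, with 32 of 39 under the 50th. The peaks of other short coding models had a median rank of 29.8. The highest rank was that of HIST1H4C under heat shock, at 75.4, with 53.6 under UV and 20.1 under HGF. HIST1H2BD ranked at 60.2 under UV, 22.3 under heat shock, 39.0 under HGF and 39.0 under IFNg. HIST2H2BE ranked at 51.8 under UV, 18.8 under heat shock, 60.5 under HGF and 40.8 under IFNg at its UTR3 site, and at 6.91 and 0.98 under UV and heat shock at its TxStart site. Without peaks under the 25th percentile of score, 6 members had a peak under UV, 4 under heat shock, 4 under HGF and 3 under IFNg. These were 9.09%, 6.06%, 6.06% and 4.55% of members, against 24.0%, 18.6%, 17.8% and 11.2% of all models.

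m6A lies mainly at the A of a short motif, of which GGAC is the commonest core. The motif was searched on the sense strand near the peaks of the 3 members that have a single exon and a GENCODE transcript within 30 nt of the model's length, HIST1H2AG, HIST1H2BD and HIST2H2BE. It lay within 50 nt of 6 of their 13 peaks. In 61 other single-exon models it lay within 50 nt of 70.0% of 333 peaks, and 36.5% of all positions in them lay that near. The stretches nearest to the sites listed under all 4 treatments are shown with GGAC in capitals.
HIST1H2BD (chromosome 6), nt 86 to 115, coding: aggctcagaagaaGGACgggaagaagcgca
HIST2H2BE (chromosome 1), nt 797 to 826, after the coding sequence: taagagaactccaGGACacaattcagcccg
HIST2H2BE (chromosome 1), nt 936 to 965, after the coding sequence: ttctgtgtattttGGACgaaggccgcgcag
In HIST1H2BD the A of GGAC at nt 101 lay 4 to 19 nt from the 4 peaks. In HIST2H2BE the site lay between a GGAC at nt 812 and one at nt 951, each 32 nt or more from a peak. Positions in transcript and model may differ by up to the difference in their lengths, and a match is not a measured methylated base.

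Other histone genes and the genes that act on histone mRNA were set beside the members. Of 13 histone genes outside the clusters, whose mRNAs are polyadenylated and made outside S phase too, 9 passed the filter. Under UV 9 of these had a peak, under heat shock 7, under HGF 5 and under IFNg 3. IFNg was highest in 3 of the 9. H1FX, a linker histone, was at 88.0 under UV and 78.1 under heat shock, against 99.1 under HGF and 99.3 under IFNg. H2AFJ was at 66.1 and 61.9 under UV and heat shock, against 80.5 and 75.8 under HGF and IFNg. H1FX and H2AFJ were the 2 of the 9 called lower between the pairs, and 0 were called higher. Over all models past the filter 16.2% were called lower and 14.6% higher. At the other end, CENPA, the H3 of centromeres, was at 80.8 under UV and 72.2 under heat shock, against 71.3 under HGF and 71.7 under IFNg.

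Of 21 genes of histone mRNA processing and decay in the table, all passed the filter. Between the pairs 1 was called higher and 1 lower, where 14.6% and 16.2% of all models past the filter were. Their median difference between the pairs was 1.57 points, and IFNg was highest in 6. SLBP was at 88.5 under UV and 91.9 under heat shock, against 85.6 under HGF and 81.4 under IFNg, and had a peak under UV and HGF. The gene called higher was CPSF2, a subunit of the cleavage complex, at 94.6 and 94.5 under UV and heat shock, against 85.03 and 81.06 under HGF and IFNg. The gene called lower was SYMPK, a scaffold of that complex, at 81.1 and 82.7 under UV and heat shock, against 95.3 and 95.3 under HGF and IFNg. NPAT, which activates histone transcription, was at 72.8 and 81.2 under UV and heat shock, against 68.8 and 67.4 under HGF and IFNg, without a call.

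Of 23 S phase genes in the table, all passed the filter, with a median difference between the pairs of -0.56 points. Of them 2 were called higher and 2 lower, where 14.6% and 16.2% of all models past the filter were. IFNg was highest in 6 of the 23. CCNE2 (cyclin E2) was at 80.3 and 79.1 under UV and heat shock, against 64.9 and 65.1 under HGF and IFNg. GINS2, a part of the replicative helicase, was at 96.8 and 98.1, against 84.3 and 89.1. CDT1, which loads that helicase, was at 68.4 and 74.1 under UV and heat shock, against 92.6 and 95.02 under HGF and IFNg. E2F1 was at 72.6 and 66.3, against 81.4 and 88.3. A peak was listed in 20 of the 23 under UV, 17 under heat shock, 17 under HGF and 6 under IFNg.

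Promoters of the members differed by type in a letter sequence that the choice of genes did not use. RefSeq promoters (GRCh38.p14, 250 bases before to 50 after the start) could be matched for 61 members. CCAAT, searched on both strands, was present in 49 of 49 promoters of H1, H2A, H2B and H3 genes and in 3 of 12 of H4 genes, against 35.7% of all 27305 promoters. TATAAA, searched on both strands, was present in 40 of 61 (65.6%), against 11.95% of all promoters. Among members past the filter 43 of 48 had CCAAT and 30 of 48 had TATAAA, and among those that did not pass 9 of 13 and 10 of 13 did. The windows are not all separate: 21 of the 61 overlapped the window of another member, HIST1H3D and HIST1H2AD had one identical window, and the 61 windows made up 50 separate regions. CCAAT was present in 38 of 38 regions of H1, H2A, H2B and H3 genes and in 3 of 12 of H4 genes. On the strand of the gene alone, CCAAT was present in 49 of 49 and 3 of 12 promoters, against 20.8% of all promoters, and TATAAA in 35 of 61 (57.4%), against 7.71%. The joined regions and the count on 1 strand were added after the data had been seen. An H2B and an H4 promoter of genes at the top of the table are shown, with both motifs on either strand in capitals. The sequences run in the direction of the gene.
HIST1H2BC, chr6:26123877-26124176, minus strand: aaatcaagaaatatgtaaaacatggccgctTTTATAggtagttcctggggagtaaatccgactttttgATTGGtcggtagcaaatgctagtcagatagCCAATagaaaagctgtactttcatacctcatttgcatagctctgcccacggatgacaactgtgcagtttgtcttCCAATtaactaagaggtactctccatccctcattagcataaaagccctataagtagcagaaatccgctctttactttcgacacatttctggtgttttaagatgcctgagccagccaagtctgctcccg
HIST1H4H, chr6:26285485-26285784, minus strand: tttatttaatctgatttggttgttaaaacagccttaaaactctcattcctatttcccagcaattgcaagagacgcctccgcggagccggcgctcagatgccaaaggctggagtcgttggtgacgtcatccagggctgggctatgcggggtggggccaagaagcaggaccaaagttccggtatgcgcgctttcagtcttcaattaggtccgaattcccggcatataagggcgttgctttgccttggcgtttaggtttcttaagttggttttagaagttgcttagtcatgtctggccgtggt
The HIST1H2BC promoter holds CCAAT on both strands and TATAAA on the other strand, and the HIST1H4H promoter holds neither. The HIST1H2BC window shares 255 bases with that of HIST1H2AC, which is read the other way (chr6:26123922-26124221, plus strand), and the TATAAA on the other strand is the one on the gene strand of HIST1H2AC. HIST1H2BC stood between percentile 99.4 and 99.7 and HIST1H4H between 99.4 and 99.8 over the 4 treatments, so a high rank was found with and without these letters.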

How the data were processed

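The 8 deposited libraries covered 4 treatments of cultures labelled HepG2, with 1 immunoprecipitation (IP) and 1 input library each. The authors deposited 1 table of 25918 gene models. Per the file headers, it holds an expression quantile for each model and treatment, a fraction between 0 and 1, printed here as a percentile, and an m6A peak count with each peak's score. The authors' score has no formula in the sources used here, its lowest value was 2, and it was used as a rank within a treatment. Not given in the sources used here are aligner, peak caller, pooling and genome build. The files give no read counts, so the depth of each library is unknown. Models tied at the lowest rank lay at 45.5 (UV), 32.7 (heat shock), 20.4 (HGF) and 18.4 (IFNg), and values under 45.5 were raised to it for comparisons. No column was left out for want of a sample (0 per-sample columns).

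The members, lists, thresholds and alternatives were chosen with earlier results of these data known. Models had to reach percentile 60 in at least 1 treatment (the filter). A model was called where 1 treatment lay 10 points or more beyond all 3 others, or where the mean of UV and heat shock differed by 10 points or more from the mean of HGF and IFNg without overlap. With 1 library of each kind per treatment no test was possible. Peaks within 100 nt were joined into a site. Named genes were members with a mean percentile of 75 or more, with a peak in 2 or more treatments, with a call, or at either end of their histone type, and, of the comparison lists, SLBP and the 3 largest and 3 smallest differences between the pairs. Intervals on peak shares are exact binomial (Clopper-Pearson, 95%) and take in no more than counting error, and a count of 0 was given the limit of 3 counts.

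GC content came from the longest GENCODE 29 transcript of a symbol (88.5% of models past the filter, 100% of members). Where stated, that of the members alone came from the transcript nearest in length to the model. Stem-loops and GGAC were read from GENCODE 29 transcripts, and promoters from RefSeq (GRCh38.p14), matched through the Entrez gene of the GENCODE transcript. SciPy 1.17.1, NumPy 2.4.6, pandas 2.3.3 and matplotlib 3.10.9 were run in Python 3.11.15, and the calling, joining and GC steps were tested on simulated data.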

Additional observations from a re-analysis of the deposited data

How the results depend on the processing

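No paired analysis was possible because each treatment has 1 library of each kind and the deposited columns carry no replicate number. For the same reason no replicate could be left out. Of 121 recomputed values, 89 kept the reported direction and, for counts, stayed within 1.5 times. A median was counted as kept when its sign held and it moved by less than the standard deviation over the members. These 89 include counts of 0 that stayed 0 and values that could not change. The median difference and the count with IFNg highest do not depend on the 5-point threshold. The log2 rank keeps the order of treatments within a gene. The GC correction in 40 bins changed most. Under it UV was lower in 2 members (3.85%, against 1.70% of models) and heat shock higher in 1 (1.92%, against 1.60%). Heat shock was lower in 0 (against 1.67%) and HGF higher in 0 (against 1.10%). The pairs were then called higher in 9 members (17.3%, against 7.56%) and lower in 6 (11.5%, against 6.22%). The median was 0.70 points and IFNg was highest in 16 (30.8%, against 22.6%). Its medians are taken over models of every level, and models near the top differ less between treatments. The same correction among models with a mean of 90 or more was chosen after seeing the data. It left UV lower in 2 of 41 members (4.88%, against 0.14% of models) and a pair call lower in 2 (4.88%, against 0.47%). Heat shock lower, HGF higher and HGF lower were each found in 0 members (against 0.23%, 0% and 0.19%). IFNg was highest in 21 (51.2%, against 28.9%). With the log2 rank from the top (also chosen after seeing the data), UV was lower in 8 members (15.4%, against 0.24% of models). Heat shock was lower in 0 (against 0.97%), and HGF higher in 0 (against 0.60%) and lower in 2 (3.85%, against 0.30%). IFNg was higher in 15 (28.8%, against 2.29%) and the pairs lower in 33 (63.5%, against 10.5%). At 5 points UV was lower in 9 members (17.3%, against 5.47% of models), IFNg higher in 4 (7.69%, against 8.18%) and the pairs lower in 19 (36.5%, against 24.7%). With floors as deposited heat shock was lower in 3 members (5.77%, against 6.12% of models). With a filter of 75 heat shock was lower in 0 (against 4.00%) and HGF higher in 0 (against 0.91%). Without peaks under the 25th percentile of score, members with a peak numbered 6 under UV, 4 under heat shock and 4 under HGF, and TxStart peaks numbered 3, 3 and 1. The cause of these changes was not tested. Joining peaks within 50 or 200 nt, averaging the models of a symbol and counting a peak in any model moved no count by over 1.5 times. The models of HIST2H2AA3, HIST2H3C and HIST2H4A had identical values, so averaging could not move the rank of a member. Expression depth is unknown, so small gaps between ranks have no known error.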
